A study of Homo sapiens with 2 samples.

Results

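The splicing factor genes of SF-539 cells, a human glioblastoma (GBM) line, were compared between a library with a control shRNA and a library with an shRNA against FKBP9. The set held the protein-coding genes of the SR family (SRSF), the hnRNP family (HNRNP), the SF3A and SF3B subunits of the U2 snRNP and the U2AF heterodimer. TRA2A, TRA2B, PTBP1, PTBP2, RBFOX2, MBNL1, MBNL2, ESRP1 and CELF1 were added to them. These names matched 61 of 58735 genes, 19951 of which were protein-coding. U2AF1 and U2AF1L5, near-identical copies, were summed, which left 60 members. Of these, 51 had at least 1 FPKM (fragments scaled by gene length and library size) in either library, and 9 did not.

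Introns are removed by the spliceosome, in which U2AF reads the 3′ end of the intron and the SF3A and SF3B complexes anchor the U2 snRNP at the branch site. SR proteins bind mostly exons and favour their inclusion, and hnRNP proteins package nascent RNA and often oppose it. Tissue-linked regulators of the PTBP, RBFOX, MBNL, ESRP and CELF families change which exons are kept, and PTBP1 is known for holding back neuronal exons in cells that are not neurons.

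Both groups were SF-539 cells labelled as epithelial glioma cells of brain, at passages 15-18. They were transduced with lentivirus, pGIPZ-CTRL for shControl and an FKBP9 shRNA for shFKBP9, and stable clones were taken through puromycin selection. The sources used here do not say whether a group was 1 clone or a pool of clones, nor which FKBP9 shRNA it carried. There was 1 library per condition, so no difference below has a replicate check and no test between the conditions was possible. All values given as intervals cover the counting error of fragments only.

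The 2 libraries held 18116873 fragments in shControl and 17158514 in shFKBP9, on 24663 and 24563 genes. FKBP9, the target of the shRNA, was at 49.8 FPKM in shControl and 4.68 FPKM in shFKBP9. Of 7 glioma and mesenchymal markers, VIM (277 and 295 FPKM), CD44 (48.6 and 55.6) and NES (2.36 and 2.17) were above 1 FPKM, whereas OLIG2, GFAP, SOX2 and S100B were under it in both libraries. Of 8 epithelial markers, KRT8 alone passed 1 FPKM (1.28 and 1.09), EPCAM, KRT18, KRT19, ESRP1 and ESRP2 were under it, and CDH1 and GRHL2 had 0 fragments in shControl, so the word epithelial in the label was not matched by these genes. Of 6 neuronal markers, SNAP25 alone passed 1 FPKM (4.98 and 5.76), and RBFOX3, ELAVL3, ELAVL4, NOVA1 and SYT1 did not. In bulk RNA, fewer cells of a kind and less RNA per cell cannot be told apart.

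The sequence of U2AF1 decides how far its level can be read, and it is shown first. U2AF1 is the small U2AF subunit, which recognises the AG at the intron end. In hg38 the files place it on the minus strand at chr21:43092956-43107587 (ENSG00000160201), and they place U2AF1L5 on the same strand at chr21:6484623-6499261 (ENSG00000275895). GENCODE release 44, on the same build, lists the second locus as an artifactual duplication whose real copy is U2AF1. Aligned over 14632 and 14639 bases, the copies differed by 18 substitutions and 3 insertions or deletions. The 723 coding bases, stop codon included, were identical. Of these differences, 1 lay in an untranslated exon and 20 lay outside the 8 exons of the canonical transcript, 14 of them in stretches that another annotated U2AF1 transcript keeps. The alternative coding exons of U2AF1, of which a transcript carries one, are shown because they are the same letter for letter in U2AF1L5. Exon variant 1 is at chr21:43101366-43101432 and, in the copy, at chr21:6493044-6493110. Exon variant 2, used by the canonical transcript, is at chr21:43100453-43100519 and, in the copy, at chr21:6492131-6492197. Both have 67 bases and are given on the minus strand, 5′ to 3′.
U2AF1 exon variant 1: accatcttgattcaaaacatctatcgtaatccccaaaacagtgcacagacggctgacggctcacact
U2AF1 exon variant 2: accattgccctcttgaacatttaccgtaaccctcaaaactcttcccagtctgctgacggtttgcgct

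The copies can be told apart mainly outside the exons of the canonical transcript, and a stretch of its first intron that holds 4 of the substitutions is shown for that reason. It is at chr21:43107119-43107271 in U2AF1 and at chr21:6498797-6498949 in U2AF1L5, 153 bases on the minus strand, and capitals mark the bases that differ. The substitutions are C21A, C31G, G93A and A133G, with the base of U2AF1 first and positions counted from 1 at the 5′ end of the stretch.
U2AF1 first intron window: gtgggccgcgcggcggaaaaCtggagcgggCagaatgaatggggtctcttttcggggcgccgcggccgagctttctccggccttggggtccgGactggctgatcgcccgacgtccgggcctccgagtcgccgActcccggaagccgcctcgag
U2AF1L5 first intron window: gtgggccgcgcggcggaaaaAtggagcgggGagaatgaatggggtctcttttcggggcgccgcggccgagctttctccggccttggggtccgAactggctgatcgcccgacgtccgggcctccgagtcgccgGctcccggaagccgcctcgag

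Of 846 windows of 100 bases along the canonical U2AF1 transcript, 834 (98.6%) also occurred in the copy, and of the windows of the whole gene body 88.0% did. A read that fits both loci can be dropped or split by a counting program, and how such reads were treated is not given in the sources used here. In both libraries 100% of the values were whole numbers of a smallest step, without fractions of that step.

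The level of U2AF1 was 0.741 FPKM in shControl (149 fragments) and 0.115 FPKM in shFKBP9 (22 fragments). For U2AF1L5 the levels were 1.16 FPKM (233 fragments) and 0.974 FPKM (186 fragments), so identical coding sequences were counted with unequal ratios. The share of U2AF1 in the fragments of the pair was 39.0% in shControl (exact 95% interval 34.1 to 44.1) and 10.6% in shFKBP9 (6.75 to 15.6), and these intervals did not overlap. Summed, the pair was at 1.90 and 1.09 FPKM, from 382 and 208 fragments. Its log2 ratio of shFKBP9 to shControl was -0.75, computed as all ratios here with 0.1 added to both FPKM, and its counting interval ran from -1.05 to -0.55. U2AF1 alone gave -1.96 and U2AF1L5 alone -0.23.

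U2AF2, the large subunit that binds the polypyrimidine tract before the AG, was at 71.4 and 66.5 FPKM, with a log2 ratio of -0.10 (interval -0.16 to -0.05). No window of its canonical transcript occurred in another gene. Reads that fit both U2AF1 copies may be missing from the pair, so the level of U2AF2 cannot be ranked against that of the pair. U2AF1L4, a more distant relative, stayed under 1 FPKM with 48 and 26 fragments (0.922 and 0.527 FPKM).

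**Figure D1:**
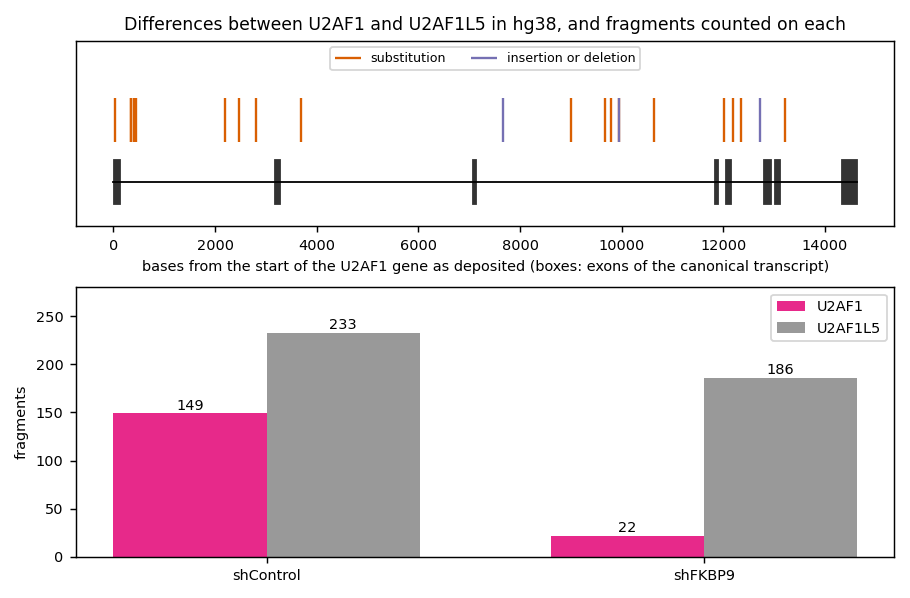
Upper panel, differences between U2AF1 and U2AF1L5 in hg38 along the U2AF1 gene in bases from its start (orange, substitutions; purple, insertions or deletions; boxes, exons of the canonical transcript). Lower panel, fragments counted on each copy in both libraries. All but 1 of the differences lie outside the boxes, and U2AF1 has 149 and 22 fragments against 233 and 186 on U2AF1L5.

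Most members differed little between the libraries. None of the 51 passed 2-fold in either direction, where 0.213% of 10346 protein-coding genes at 1 FPKM were higher in shFKBP9 and 0.193% were lower. At a log2 ratio past 0.32, a ratio of 5 to 4, 1 member was higher, MBNL2, and 2 were lower past -0.32, SRSF8 and the U2AF1 pair. MBNL2 no longer passed 0.32 with 1 added to FPKM, nor with the median of protein-coding genes of like GC content subtracted. The shares over all protein-coding genes were 5.87% higher and 6.94% lower. The median log2 ratio of the members was 0.01, with 26 higher and 25 lower, beside -0.02 for all protein-coding genes, and with TPM in place of FPKM it turned to -0.01 with 22 higher and 29 lower. With the GC medians subtracted, 18 were higher and 33 lower. The middle of the members ran from -0.11 to 0.05 (lower to upper quartile) and that of all protein-coding genes from -0.15 to 0.12.

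The counting interval lay above 0 for 11 members (21.6%) and below 0 for 18 (35.3%), against 19.7% and 24% of protein-coding genes. With median ratio scaling 15 members lay above 0 and 17 below, for which no share over all genes is given here. Among the 46 members with at least 10 FPKM in either library, 11 lay above 0 and 15 below, where the shares over 4319 protein-coding genes of that level were 25.2% and 31.1%. At that level the shares of protein-coding genes past 0.32 in log2 were 4.1% higher and 3.26% lower, and the members had MBNL2 higher and none lower. MBNL2, at 8.54 FPKM in shControl and 10.9 in shFKBP9, entered this set only through the library where it was higher. The members together took 1.34% of all fragments in shControl and 1.32% in shFKBP9.

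**Figure D2:**
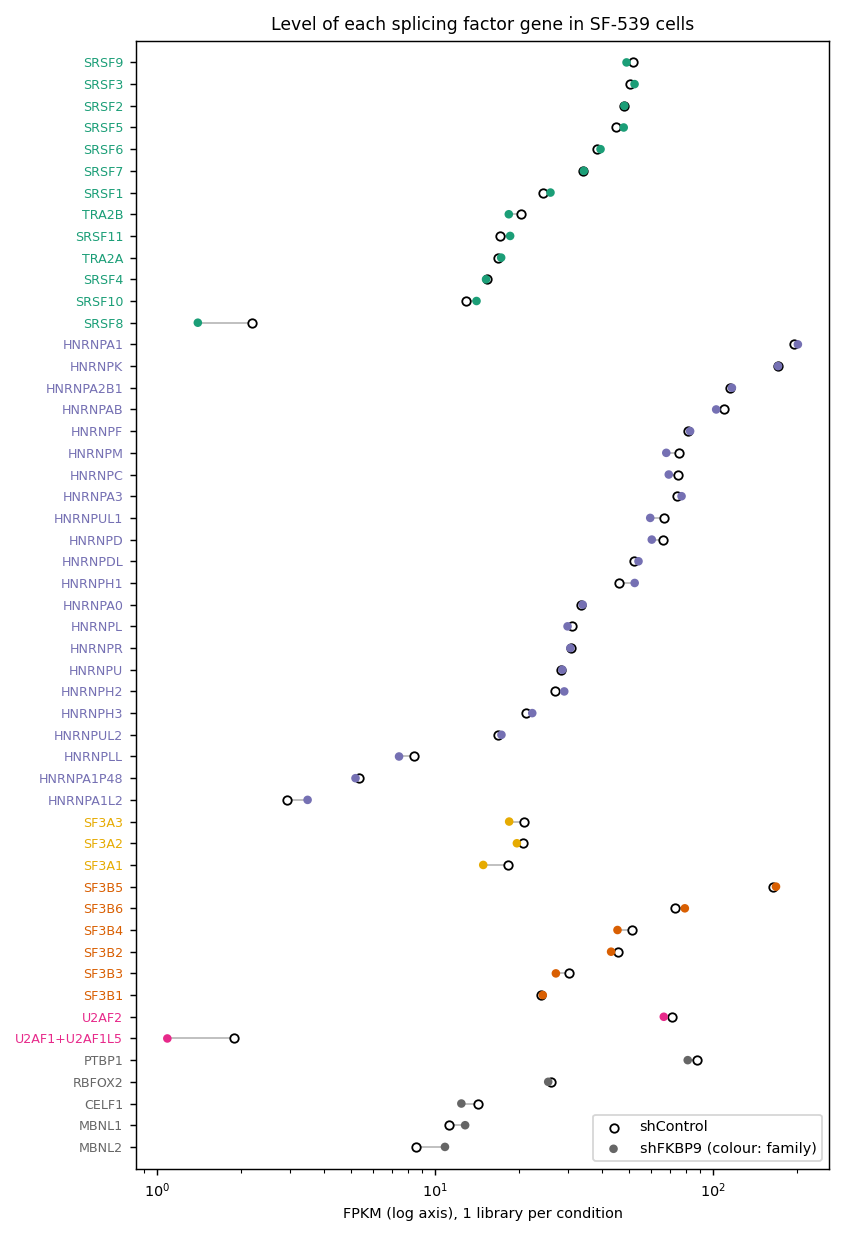
FPKM on a log axis of the 51 members with at least 1 FPKM in either library, grouped by family (open circles, shControl; filled, shFKBP9). The circles overlap or nearly touch for most genes, and SRSF8, the U2AF1 pair and MBNL2 show the widest gaps.

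The SR family was little altered as a group. The SR proteins carry RNA-binding domains and a tail rich in arginine and serine. TRA2A and TRA2B are related and bind purine-rich exon enhancers. With them the family had 13 members above 1 FPKM, 9 higher and 4 lower (7 and 6 with TPM, 4 and 9 with GC medians subtracted), and a median log2 ratio of 0.04. Counting intervals lay above 0 for 4 of the 13 (30.8%) and below 0 for 3 (23.1%), beside 19.7% and 24% of protein-coding genes. Among protein-coding genes with at least 10 FPKM the shares were 25.2% above and 31.1% below. SRSF9 had the highest level in shControl, 51.3 FPKM and 48.9 in shFKBP9. SRSF3, the smallest SR protein, followed with 50.4 and 52.2 FPKM. SRSF2, which is often mutated in myeloid neoplasms, was at 47.7 and 47.98 FPKM. Their counting intervals in log2 ran from -0.14 to -0.00 for SRSF9, from 0.00 to 0.10 for SRSF3 and from -0.07 to 0.09 for SRSF2.

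SRSF1, the founding SR protein, was at 24.4 and 26.0 FPKM (log2 ratio 0.09, interval -0.01 to 0.20). SRSF10, which acts as a repressor when dephosphorylated, was at 12.9 and 14.1 FPKM, and its log2 ratio of 0.12 was the family's highest. SRSF11 was at 17.2 and 18.6 FPKM and had a log2 ratio of 0.12 as well. SRSF1 and SRSF10 turned to -0.03 and SRSF11 to -0.00 when GC medians were subtracted. Of the TRA2 genes, TRA2A was at 16.9 and 17.3 FPKM (0.04) and TRA2B at 20.3 and 18.4 FPKM (-0.14, interval -0.21 to -0.08).

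SRSF8 stood apart from the rest of the family. It is a gene without introns that arose from SRSF2, at chr11:95067197-95071224 on the plus strand. Its level was 2.19 FPKM in shControl, from 160 fragments, and 1.40 FPKM in shFKBP9, from 97, a log2 ratio of -0.61 with an interval from -1.02 to -0.27. Without it the other 10 SRSF genes had log2 ratios from -0.07 to 0.12. SRSF12 had 4 and 2 fragments.

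The hnRNP family held most of the fragments of the set, 0.821% of all fragments in shControl and 0.818% in shFKBP9. Its 22 members above 1 FPKM had a median log2 ratio of 0.02, with 12 higher and 10 lower. The median turned to -0.00 with TPM (10 and 12) and to -0.05 with GC medians subtracted (7 and 15). None passed 0.32 in either direction, where 5.87% and 6.94% of protein-coding genes did, and 4.1% and 3.26% of those with at least 10 FPKM. HNRNPA1, which binds exonic silencers, was the most abundant member of the whole set at 196 and 202 FPKM (log2 ratio 0.04). HNRNPK, which binds runs of cytosine, was at 172 and 171 FPKM (-0.00). HNRNPA2B1 was at 115 and 117 FPKM and HNRNPAB at 109 and 103 FPKM.

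The paralogs HNRNPH1, HNRNPH2 and HNRNPH3, which bind runs of guanine, were all higher in shFKBP9, though HNRNPH3 turned to -0.05 with GC medians subtracted. HNRNPH1, at chr5:179614178-179634784 on the minus strand, was at 45.8 and 52.3 FPKM with a log2 ratio of 0.19 (interval 0.15 to 0.24). HNRNPH2 gave 0.11 (-0.01 to 0.24) and HNRNPH3 gave 0.07 (-0.02 to 0.16), so that both intervals held 0. HNRNPF, the closest relative of the HNRNPH genes, was at 81.0 and 82.7 FPKM (0.03).

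The counting interval was below 0 for 6 of the 22 hnRNP genes (27.3%) and above 0 for 4 (18.2%), shares near the 24% and 19.7% of all protein-coding genes. Among protein-coding genes with at least 10 FPKM the shares were 31.1% below and 25.2% above. HNRNPLL, known for exon skipping in CD45 in T cells, was at 8.41 and 7.42 FPKM (-0.18). HNRNPUL1 was at 66.4 and 59.4 FPKM (-0.16), HNRNPM at 75.4 and 67.9 (-0.15) and HNRNPD, which also binds AU-rich elements, at 66.2 and 60.2 (-0.14). HNRNPC, which binds runs of uridine, was at 74.7 and 69.3 FPKM (-0.11), and HNRNPAB gave -0.09. With GC medians subtracted the values were -0.07 for HNRNPUL1, -0.06 for HNRNPM, -0.20 for HNRNPD, -0.23 for HNRNPC and -0.00 for HNRNPAB. HNRNPUL2, the paralog of HNRNPUL1, gave 0.05 (interval -0.05 to 0.15), and HNRNPDL, a relative of HNRNPD, gave 0.06 (0.00 to 0.11).

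Several hnRNP genes have copies that can take or lend reads. By symbol 134 copies of 18 members were found, 43 of them with a fragment and 10 with at least 50 fragments over both libraries. Of these 10, HNRNPCP2 had 234 and 227 fragments and HNRNPKP4 119 and 102, and HNRNPA1P10, HNRNPA1P16, HNRNPA1P7, HNRNPA3P6, HNRNPCP1 and HNRNPLP2 had between 26 and 76 in a library. The copies held at most 2.58% of the fragments of parent and copies together in shControl, the value of HNRNPC. Adding the copies left the HNRNPA1 log2 ratio at 0.04 and moved that of HNRNPC from -0.11 to -0.10. Of the copies, HNRNPA1L2 and HNRNPA1P48 are members themselves. HNRNPA1L2 had 73 and 82 fragments (2.94 and 3.48 FPKM), and all windows of its transcript also occurred in other genes. HNRNPA1P48 had 186 and 171 fragments, with 36.1% of its windows shared. Both are uncertain on that account. HNRNPA1 itself shared 27.1% of its windows, copies among the genes that held them, and HNRNPL 28.9%, in part with HNRNPLP1 and HNRNPLP2. HNRNPUL2 shared 44.8% with HNRNPUL2-BSCL2, a readthrough that overlaps it, and SRSF1 26.7% with a gene not named as its copy. The values of these genes carry the limit of shared reads in part.

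**Figure D3:**
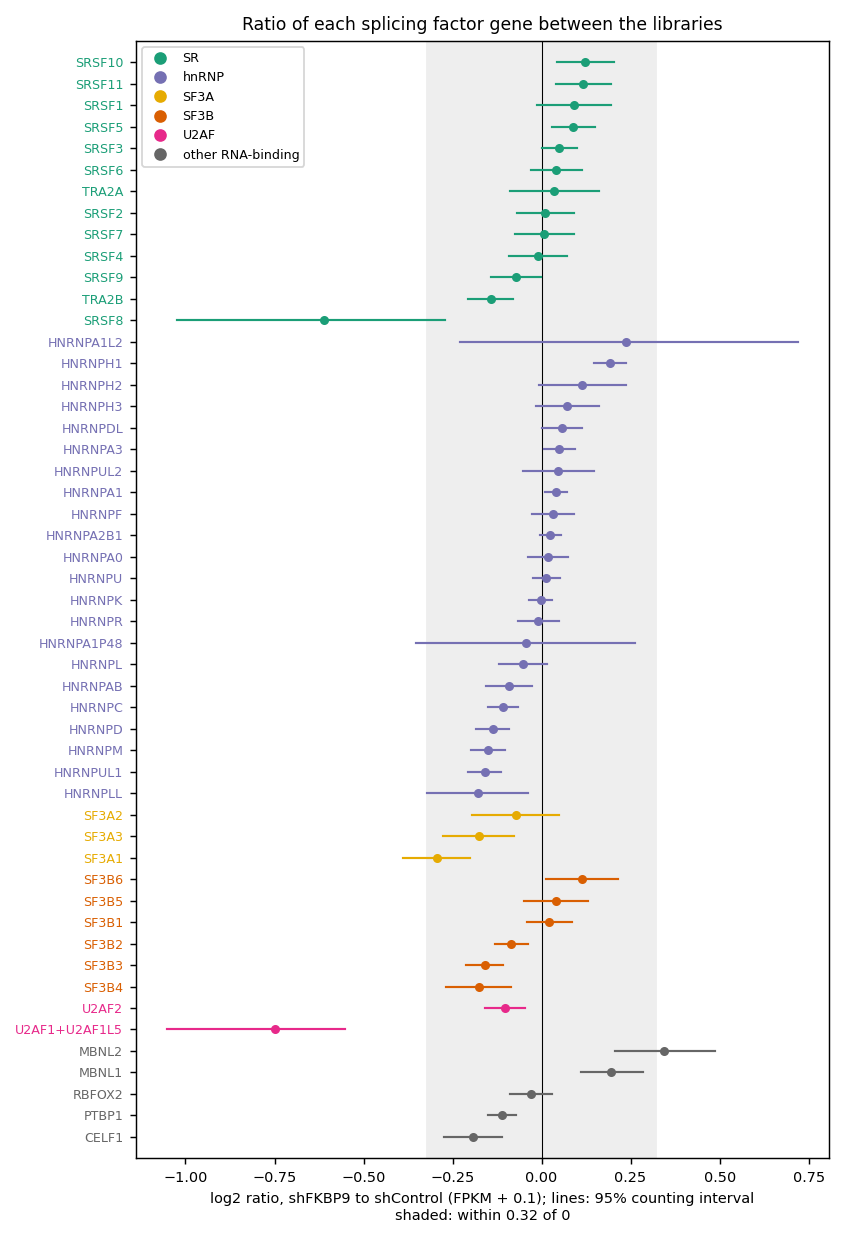
Log2 ratio of shFKBP9 to shControl (0.1 added to FPKM) for the 51 members, by family, with 95% counting intervals as lines and the range within 0.32 of 0 shaded. SRSF8, at -0.61, and the U2AF1 pair, at -0.75, lie to the left of the shading, and MBNL2, at 0.34, lies to its right.

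The subunits of SF3A and SF3B, which travel together in the U2 snRNP, did not all share a direction. All 3 SF3A genes were lower in shFKBP9, though SF3A2 turned to 0.05 with GC medians subtracted. SF3A1, at chr22:30331988-30356947 on the minus strand, was at 18.3 and 14.9 FPKM, a log2 ratio of -0.29 (interval -0.39 to -0.20) that did not reach -0.32. SF3A3 was at 20.9 and 18.5 FPKM (-0.18, interval -0.28 to -0.08). SF3A2 was at 20.7 and 19.7 FPKM (-0.07), and its interval, -0.19 to 0.05, held 0.

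Of the 6 SF3B genes, 3 were higher and 3 lower (2 and 4 with GC medians subtracted, where SF3B1 turned to -0.04, SF3B2 to 0.00 and SF3B6 to -0.00). SF3B1, which holds the branch site and is recurrently mutated in myeloid neoplasms and uveal melanoma, was at 24.04 and 24.4 FPKM (0.02, interval -0.04 to 0.09). SF3B4 was at 51.2 and 45.3 FPKM (-0.18), SF3B3 at 30.4 and 27.2 FPKM (-0.16) and SF3B2 at 45.6 and 43.0 FPKM (-0.09), and the intervals of all 3 were below 0, where 24% of protein-coding genes, and 31.1% of those with at least 10 FPKM, had one below 0. SF3B4 gave -0.08 and SF3B3 -0.09 after GC medians were subtracted. SF3B6, which contacts the branch adenosine, was at 73.1 and 79.2 FPKM (0.11, interval 0.01 to 0.22). SF3B5, a small subunit, was at 164 and 168 FPKM (0.04). The SF3B levels per length spanned from 24.04 FPKM for SF3B1 to 164 FPKM for SF3B5 in shControl. Over all 9 SF3 genes the median log2 ratio was -0.09, with 3 higher and 6 lower, and it became -0.04 with GC medians subtracted. Over all protein-coding genes 53.7% were lower.

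Of the tissue-linked regulators, MBNL1 and MBNL2 of the muscleblind family were higher in shFKBP9. Muscleblind proteins bind YGCY motifs and are sequestered by expanded repeats in myotonic dystrophy. MBNL2, at chr13:97221434-97394120 on the plus strand, had 759 and 915 fragments, 8.54 and 10.9 FPKM, and a log2 ratio of 0.34 (interval 0.21 to 0.49). MBNL1 was at 11.2 and 12.8 FPKM (0.20, interval 0.11 to 0.29). With GC medians subtracted the log2 ratios were 0.19 for MBNL2 and 0.05 for MBNL1. MBNL3, which is not a member and was looked at after its values were seen, was under 1 FPKM and lower, with 217 and 182 fragments (0.982 and 0.869 FPKM, log2 ratio -0.16, interval -0.47 to 0.11).

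PTBP1 was at 87.6 and 81.1 FPKM (-0.11, interval -0.15 to -0.07, and -0.01 with GC medians subtracted), whereas PTBP2, its neuronal paralog, was at 0.427 and 0.459 FPKM from 100 and 102 fragments. CELF1 was at 14.2 and 12.4 FPKM (-0.19) and RBFOX2 at 26.1 and 25.5 FPKM (-0.03, interval -0.09 to 0.03). ESRP1, the epithelial splicing regulator, had 2 and 6 fragments, which is 0.0227 and 0.0717 FPKM. Of the other members under 1 FPKM, HNRNPCL1, HNRNPCL2, HNRNPCL3 and HNRNPCL4 had 0 fragments in both libraries and HNRNPUL2-BSCL2, a readthrough, had 0 and 1. A count of 0 allows up to 3 fragments that could be counted, which sets no limit on fragments lost to other loci: HNRNPCL3 shared 84.5% of its windows with other genes and HNRNPCL4 93.8%.

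The ratios of the members moved with the GC content of their transcripts, as they did over all genes. Protein-coding genes were put into 10 groups by the GC content of the canonical transcript. The median log2 ratio of these groups went from 0.15 in the lowest, with a median GC of 36.9%, to -0.12 in the highest, with a median GC of 64.3%. Over the 51 members Pearson's r between GC content and log2 ratio was -0.39 and Spearman's rho was -0.52, and over 10329 protein-coding genes they were -0.37 and -0.45. The points are genes of the same 2 libraries and are not independent replicates. The families differed in GC content: its median was 41.0% in the SR family, 42.6% in the hnRNP family, 50.7% in SF3A and 51.7% in SF3B.

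With the median of its GC group subtracted from each gene, an alternative chosen after seeing the data, the family medians became -0.03 for SR, -0.05 for hnRNP, -0.15 for SF3A and -0.02 for SF3B. The sign turned for 22 of the 51 members, whose log2 ratios had been at most 0.12 from 0 after rounding, among them U2AF2, which went from -0.10 to 0.01. MBNL2 had a GC content of 36.6% and PTBP1 of 57.7%. SRSF8 gave -0.63, the U2AF1 pair -0.66, SF3A1 -0.23 and HNRNPH1 0.17 after the subtraction, and HNRNPH2 went from 0.11 to 0.05. HNRNPLL, at 38.4% GC, went the other way, from -0.18 to -0.30. The part of GC content in any of these differences was not tested.

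**Figure D4:**
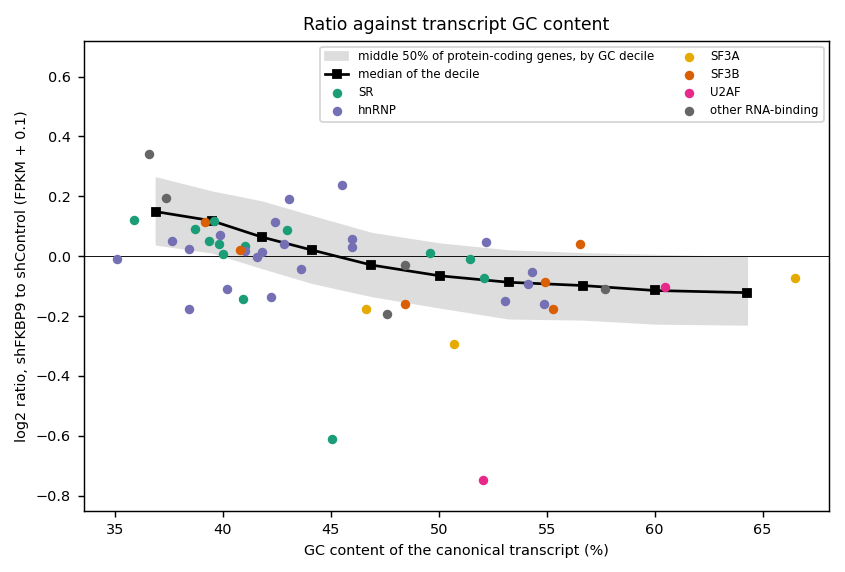
Log2 ratio of shFKBP9 to shControl against the GC content of the canonical transcript in percent, for the members (points, coloured by family) and for 10 GC groups of all protein-coding genes (squares, medians; grey, middle 50%). The medians go down from 0.15 to -0.12 with rising GC content, and SRSF8 and the U2AF1 pair lie far under the grey band.

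The other genes of the splicing machinery also lay on both sides of 0. Of 128 symbols in 9 lists, 127 were found and 119 genes had at least 1 FPKM in either library. Their median log2 ratio was -0.02, with 54 higher and 65 lower. Past 0.32 in log2, 3 were higher (2.52%) and 2 lower (1.68%), where 5.87% and 6.94% of protein-coding genes were, and none passed 2-fold. Of protein-coding genes with at least 10 FPKM, 4.1% were higher and 3.26% lower past 0.32. The median level in shControl was 16.4 FPKM for the 119 genes and 7.37 FPKM for all protein-coding genes. With 1 added to FPKM, 0 of the 119 were higher and 2 lower past 0.32. With GC medians subtracted 2 were higher, ZRSR2 (0.43) and SNRNP25 (0.37), and 2 lower, PRPF8 (-0.33) and RNPC3 (-0.36). Before the subtraction SNRNP25 was at 0.28 and RNPC3 at -0.30, and after it CLK2, CLK4 and TIA1 no longer passed. The interval lay above 0 for 23 of the 119 (19.3%) and below 0 for 33 (27.7%), near the 19.7% and 24% of protein-coding genes. Among protein-coding genes with at least 10 FPKM these shares were 25.2% and 31.1%.

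PRPF8, the large scaffold protein at the spliceosome's centre, was at 37.9 and 28.4 FPKM, a log2 ratio of -0.42 (interval -0.47 to -0.37). PRPF8 gave -0.33 with GC medians subtracted. SNRNP200, the helicase that unwinds U4 from U6, was at 43.1 and 36.1 FPKM (-0.26, and -0.17 with GC medians subtracted). Both belong to the tri-snRNP list, in which 17 of 23 genes were lower and the median was -0.06, beside the same 53.7% of protein-coding genes. With GC medians subtracted, 11 of the 23 were lower and the median was 0.01. LSM5, a ring protein on U6, had the highest ratio of the list at 8.78 and 10.2 FPKM (0.22, interval 0.08 to 0.37), and gave 0.07 with GC medians subtracted. Among the kinases of SR proteins, CLK2 was at 14.6 and 11.4 FPKM (-0.36) and CLK4 at 1.58 and 2.09 FPKM (0.38), and with GC medians subtracted they gave -0.26 and 0.23. In the list of SR-related proteins, 8 of 10 were lower, with a median of -0.11 (7 and -0.05 with GC medians subtracted). SRRM2, a nuclear speckle scaffold, was lowest there with 24.8 and 20.5 FPKM (-0.27, and -0.17 with GC medians subtracted).

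The remaining lists had medians from -0.05 for the U1 snRNP to 0.09 for the Sm core, which had 6 of 7 genes higher (5 with TPM, 4 with GC medians subtracted), beside 46.3% higher over all protein-coding genes. With GC medians subtracted the medians of all 9 lists lay between -0.05 for the SR-related list and 0.03, and that of the U1 snRNP turned to 0.02. ZRSR2, a U2AF1 relative of the minor spliceosome, was at 2.55 and 3.31 FPKM (0.36) from 96 and 118 fragments, and its interval, -0.03 to 0.78, held 0. With 1 added to FPKM, ZRSR2 gave 0.28, CLK4 0.26 and TIA1 0.31. With GC medians subtracted ZRSR2 rose to 0.43. TIA1, which binds uridine-rich stretches after the exon, was at 5.05 and 6.51 FPKM (0.36, interval 0.21 to 0.52), and gave 0.21 with GC medians subtracted. Over the 119 genes the correlation of log2 ratio with GC content was -0.63 by Pearson and -0.67 by Spearman.

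**Figure D5:**
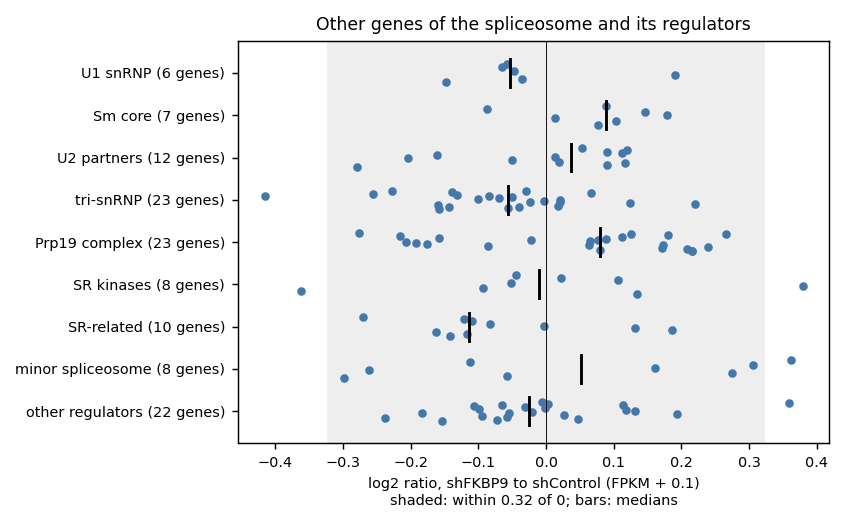
Log2 ratio of shFKBP9 to shControl for 119 other genes of the splicing machinery in 9 lists (points, genes; bars, list medians; shading, within 0.32 of 0). PRPF8 and CLK2 lie left of the shading, and CLK4, ZRSR2 and TIA1 lie right of it.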

How the data were processed

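Each condition of the SF-539 line gave 1 RNA library. Reads with adapter sequence, unknown bases or poor quality had been discarded by the authors, who aligned pairs to hg38 with HISAT2 2.0.5, counted them with featureCounts 1.5.0-p3 and listed edgeR, per the submitters' processing notes and the methods. The authors deposited FPKM, in which fragments are divided by gene length and by library size. The annotation release is not given in the sources used here.

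Multiplied by gene length, 100% of the values of a library came out as whole numbers of 1 smallest step (tolerance 0.001 fragments), which gave the fragments. On 1 kilobase, 1 fragment is 0.0552 FPKM in shControl and 0.0582 in shFKBP9. The log2 ratio used FPKM with 0.1 added. Counts past 2-fold, or past 0.32 on the log2 scale, were limited to genes reaching 1 FPKM in shControl or shFKBP9. Intervals are exact Clopper-Pearson intervals at 95% on fragments with nothing added, so a ratio with 0.1 added can lie outside the interval of a gene with few fragments. Read pairs without molecular identifiers are not independent molecules.

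The members and lists were chosen with earlier results of these data known. The rule for naming took in members, list genes past 0.32 in log2 or among the 2 largest ratios in each direction with at least 50 fragments together, all markers, and copies of members with at least 50 fragments together. Not every list gene it allows is printed, and MBNL3 and SNRNP25 fall outside it. The copies of U2AF1 were aligned with MAFFT 7.526. Exons, windows of 100 bases and GC content came from GENCODE release 44, and GC content was found for 99.8% of the genes. Alternatives were an addition of 1 or 0.01, median ratio and TPM scaling, other minimums, copies summed and GC subtraction. Recovery of fragments, fold counts and intervals were run on simulated counts with Poisson noise only. The simulation held no library, clone or GC effect, so it checks the computation and cannot speak to such effects. Scripts ran in Python 3.11.15 with scipy 1.17.1, pandas 2.3.3, matplotlib 3.10.9 and numpy 2.4.6.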

Additional observations from a re-analysis of the deposited data

Results flagged for a closer look

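Outside the members, 17 copied genes of chromosome 21 and copies of members with at least 10 fragments were looked at for a level in shFKBP9 more than 2-fold that of the control library, with a counting interval above 0, and 1 met this. CBSL, the copy of CBS at the duplicated stretch that also holds U2AF1L5, had 1 fragment in shControl and 15 in shFKBP9, a log2 ratio of 1.48 (counting interval of the fragments 1.28 to 9.38). CBS and CBSL together had 40 and 57 fragments.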

How the results depend on the processing

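With 1 library per condition no difference has a replicate check. Depth limits some members as well: HNRNPA1 had 18098 and 17653 fragments, but SRSF8 had 160 and 97 (interval -1.02 to -0.27) and HNRNPA1L2 had 73 and 82 (-0.23 to 0.72). Of 90 alternative values, 80 stayed within 1.5 times the count, or within the interval of the value. With 1 added to FPKM no member (0) was past 0.32 in log2 higher and the U2AF1 pair gave -0.47. With no minimum 2 members were past 0.32 in log2 higher. At 10 FPKM 0 were past 0.32 in log2 lower, since SRSF8 and the pair are under that level. The pair gave -1.96 as U2AF1 alone and -0.23 as U2AF1L5 alone, and -0.80 from fragments with nothing added. With GC medians subtracted 0 members were past 0.32 in log2 higher, MBNL2 gave 0.19, PTBP1 -0.01 and SF3B3 -0.09. Median ratio scaling moved the median of all protein-coding genes by 0.02 and gave 29 members higher and 22 lower, and TPM moved it by -0.02 and gave 22 higher and 29 lower. The median of the members turned from 0.01 to -0.01 with TPM and to -0.03 with GC medians subtracted, and 7 members within 0.02 of 0 changed sign with a scaling, whereas 22 of 51 did with GC medians subtracted, which gave 18 higher and 33 lower. The log2 ratios of the U2AF1 pair and of the single genes recomputed (SRSF8, MBNL2, SF3A1, PTBP1, HNRNPH1 and SF3B3) kept their sign under every alternative run. An added value cannot turn a sign, and the scalings moved ratios by about 0.02. For these single genes only the GC subtraction could have turned a sign. No paired analysis was possible because each group has 1 library.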
